A study of Mus musculus with 8 samples.

Results

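Lymphoid and myeloid progenitors that lack IRF-8 were compared with each other, gene by gene, on the 4 arrays of the series that carry RNA from IRF-8 knockout mice, out of 8 arrays in all. The RNA came from cells double sorted out of bone marrow of C57BL/6 mice. The groups were all-lymphoid progenitors (ALP) of IRF-8 knockout mice, common myeloid progenitors (CMP) of IRF-8 knockout mice, ALP of wild-type mice and CMP of wild-type mice, with 2 Illumina MouseRef-8 v2.0 bead arrays in each of the 4 groups. Per the labels, ALP lacked lineage markers, Ly6D and B220 and carried c-kit, Flk2 and the IL-7 receptor alpha chain. CMP lacked lineage markers, Sca-1, CD11c, CD16/32 and CD115 and carried high c-kit, CD34 and Flk2. The allele behind the knockout, the age of the mice and the number of animals behind an array were not stated in the labels. Genotype was taken from each sample's own label, since the text on the design speaks of wild-type mice. Nothing in the labels says that replicates came from separate animals, and a p-value therefore reflects the spread between these samples only, which may be technical.

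IRF-8 belongs to the interferon regulatory factors, a family of transcription factors. It binds DNA with partners such as PU.1 and is known for its part in the making of monocytes and dendritic cells, for restraining the making of neutrophils, and for a role in early B cells. ALP are bone marrow cells that give rise to B, T, natural killer and some dendritic cells, while CMP give rise to granulocytes, monocytes, red cells and platelets. A comparison of ALP with CMP within the knockout shows which lineage differences are present when IRF-8 is absent, and the same comparison in wild type, on other arrays, shows the differences with IRF-8 present.

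Levels are log2 values of the authors' gene table, which holds 18132 genes. A difference is the mean of the ALP arrays minus that of the CMP arrays, so a positive one means a higher level in ALP. On the knockout arrays 12124 to 12749 probes were detected, against 11122 to 12330 on the wild-type arrays, where detected means a detection p under 0.05. Knockout CMP array 2 had a median scanner signal of 233.3, against 163.8 to 180.5 on the other 7 arrays, and wild-type ALP array 2 correlated with the others, on average, at 0.897, against 0.932 to 0.948 for the other 7. The 2 knockout ALP arrays correlated across genes at 0.967 and the 2 knockout CMP arrays at 0.956, while a knockout ALP array and a knockout CMP array correlated at 0.944 to 0.96. The highest correlation between the cell types thus lay above that of the CMP pair; genes are not independent replicates, and these values are a description.

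The labels were first set against genes of each cell type. Of 10 ALP marker genes on the table, 8 had both knockout ALP arrays above both knockout CMP arrays and none the reverse, where 17.9% of all genes lay above and 20.8% below. Of 12 CMP marker genes, 10 lay below in ALP and none above. Il7r, the receptor chain used to sort ALP, had levels of 8.57 and 8.42 in knockout ALP, against 4.21 and 3.98 in knockout CMP. It was not detected in CMP, and its difference of 4.40 checks the sort and is not a finding. Ly6d, whose protein was absent from sorted ALP, had transcript levels of 6.22 and 5.57 in knockout ALP, against 3.24 and 3.51 in knockout CMP, where it was not detected. Flt3, which encodes Flk2 and was required in both gates, had levels of 10.01 and 10.21 in knockout ALP, against 10.35 and 9.63 in knockout CMP. The Irf8 probe had levels of 11.39 and 11.16 in knockout ALP, 10.80 and 10.79 in knockout CMP, 10.95 and 10.87 in wild-type ALP, and 11.04 and 10.94 in wild-type CMP. The knockout ALP arrays lay above the wild-type ALP arrays and the knockout CMP arrays slightly below the wild-type CMP arrays; the place of the probe with respect to the disruption is not known, and these levels check nothing about genotype.

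Knockout ALP and knockout CMP differed in 3 of 18132 genes past the threshold (0.0165%; limma, Benjamini-Hochberg adjusted p under 0.05), all 3 higher in ALP: the sort gene Il7r, Rag1 and Slc27a2. Without adjustment, 1059 genes (5.84%) had a p under 0.05, 568 higher in ALP (3.13%) and 491 lower (2.71%). At an adjusted p under 0.10, 9 genes passed (0.0496%), 7 higher and 2 lower. In bulk RNA of a sorted population, fewer cells of a kind and less RNA per cell cannot be told apart. The 3 calls rest on few arrays: with the 4 knockout arrays fitted alone, 0 genes passed in limma. They were also lost when any single knockout array or either wild-type CMP array was left out. Without knockout CMP array 2, the one with the high median signal, 249 genes differed by more than 2 on the log2 scale, against 151 with all arrays.

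Rag1, which encodes part of the recombinase that rearranges antigen receptor genes in lymphocytes, had levels of 9.29 and 8.42 in knockout ALP, against 3.97 and 3.54 in knockout CMP. The groups stood far apart, and no knockout CMP array detected the gene. The difference was 5.10 (SE 0.35, adjusted p = 0.0203 in limma), or at least 21.8-fold higher in ALP, where "at least" sets the ALP mean against the lowest detected value of the CMP arrays. Such bounds hold on the scale of the authors' gene table only. Over the 20 alternatives to the main fit, the lowest difference for Rag1 was 1.96. In wild type its difference was 5.27, and the difference between genotypes was -0.17 (SE 0.49, adjusted p = 0.958).

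Slc27a2, which encodes a very-long-chain acyl-CoA synthetase and fatty acid transport protein, had levels of 8.33 and 8.53 in knockout ALP, against 4.22 and 4.76 in knockout CMP. Both ALP arrays lay above both CMP arrays, and 1 of the CMP arrays detected it. The difference was 3.94 (SE 0.27, adjusted p = 0.0203 in limma). In wild type the levels were lower in both cell types, 6.00 and 6.23 in ALP and 3.28 and 3.06 in CMP. The difference there was 2.95, and the difference between genotypes was 0.99 (SE 0.38, adjusted p = 0.722).

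Il7r passed as well (SE 0.24, adjusted p = 0.0141 in limma), at least 17-fold higher in ALP. The estimates moved little when an array was left out, 4.29 to 4.51 for Il7r, 4.66 to 5.53 for Rag1 and 3.67 to 4.21 for Slc27a2. Over all 20 alternatives, which include other processing of the signals, their sizes moved more. The estimates then ran from 1.65 to 4.51 for Il7r, 1.96 to 5.53 for Rag1 and 1.54 to 4.21 for Slc27a2. The adjusted p did move: over the 8 fits that each left out 1 array it was 0.0279 to 0.163 for Il7r, 0.0447 to 0.214 for Rag1 and 0.0447 to 0.22 for Slc27a2, and each gene passed in 2 of the 8.

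The bases before the annotated starts of these 3 genes are shown because they are the ones called between knockout ALP and knockout CMP. They are RefSeq sequence of build GRCm38.p6, 250 bases each, read 5′ to 3′ on the gene's strand: Il7r at chr15:9529877-9530126 (minus strand), Slc27a2 at chr2:126552774-126553023 (plus strand) and Rag1 at chr2:101649533-101649782 (minus strand). Capitals mark matches, on either strand, to GGAAGT, an ETS-type motif of the kind PU.1 binds, to the E-box motifs CAGCTG and CAGGTG, or to the ETS-IRF composite element, GGAA set 2 bases before GAAA, on which IRF-8 and PU.1 can bind together.
Il7r: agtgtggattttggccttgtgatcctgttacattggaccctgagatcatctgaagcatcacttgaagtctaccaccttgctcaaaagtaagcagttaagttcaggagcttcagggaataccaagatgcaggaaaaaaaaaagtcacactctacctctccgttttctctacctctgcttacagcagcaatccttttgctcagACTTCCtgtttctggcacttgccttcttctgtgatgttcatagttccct
Rag1: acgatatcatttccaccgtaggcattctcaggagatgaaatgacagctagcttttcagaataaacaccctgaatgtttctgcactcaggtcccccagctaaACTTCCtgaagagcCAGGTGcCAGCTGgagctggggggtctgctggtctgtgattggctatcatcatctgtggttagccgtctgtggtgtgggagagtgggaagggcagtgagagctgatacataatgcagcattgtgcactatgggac
Slc27a2: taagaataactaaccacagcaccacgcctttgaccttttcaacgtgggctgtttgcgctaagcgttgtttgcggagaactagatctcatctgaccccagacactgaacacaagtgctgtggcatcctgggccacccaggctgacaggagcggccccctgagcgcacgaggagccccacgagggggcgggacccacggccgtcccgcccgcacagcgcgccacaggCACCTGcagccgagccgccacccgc
Il7r held 1 GGAAGT match, Slc27a2 held 1 CAGGTG match, and Rag1 held 1 match to the ETS-type motif and 1 to each E-box, the E-boxes set 1 base apart. None of the 3 windows held the composite element. Among 32851 windows of this length before annotated starts, 19.7% held GGAAGT, 13% CAGCTG, 17.2% CAGGTG and 2.3% the composite element, so single matches are common, and a match is a description of letters only.

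The other 6 genes with an adjusted p under 0.10, named after their values were seen, also had arrays that did not overlap. Tnfsf11, which encodes the cytokine RANKL, had levels of 8.11 and 8.51 in knockout ALP, against 4.29 and 2.79 in knockout CMP, where it was not detected. It stood at least 15-fold higher in ALP (adjusted p = 0.078 in limma). Bfsp2, which encodes a beaded filament protein known from the lens, had 6.60 and 6.63 in knockout ALP, against 3.02 and 3.64 in knockout CMP, at least 4.62-fold higher (adjusted p = 0.078). Both genes had differences of like size in wild type, 4.49 and 4.05. Cmah, which encodes a sialic acid hydroxylase, had 10.26 and 9.86 in knockout ALP, against 6.70 and 7.03 in knockout CMP, a difference of 3.20 (adjusted p = 0.0886). Its wild-type difference was 5.49, and knockout CMP lay above wild-type CMP, which had 4.46 and 3.63.

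Stk11ip, which encodes a partner of the kinase LKB1, had 7.23 and 7.33 in knockout ALP, 4.49 and 4.74 in knockout CMP, 4.13 and 3.77 in wild-type ALP, and 3.81 and 3.52 in wild-type CMP. Knockout ALP alone were high, and the wild-type arrays did not detect it. Its knockout difference was 2.66 (SE 0.24, adjusted p = 0.078 in limma), against 0.28 in wild type, and the difference between genotypes was 2.38 (SE 0.34, adjusted p = 0.261), which did not pass. The 2 genes on the other side were Serpina3g, an inhibitor of serine proteases, and 1700020L24Rik. Serpina3g had 3.27 and 3.96 in knockout ALP, against 6.66 and 6.71 in knockout CMP, at least 5.25-fold lower in ALP (adjusted p = 0.078). 1700020L24Rik had 2.80 and 3.81 in knockout ALP, against 7.05 and 7.21 in knockout CMP, at least 7.13-fold lower (adjusted p = 0.078). Neither was detected in ALP, and in wild type the differences were -3.66 and -3.23.

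**Figure D1:**
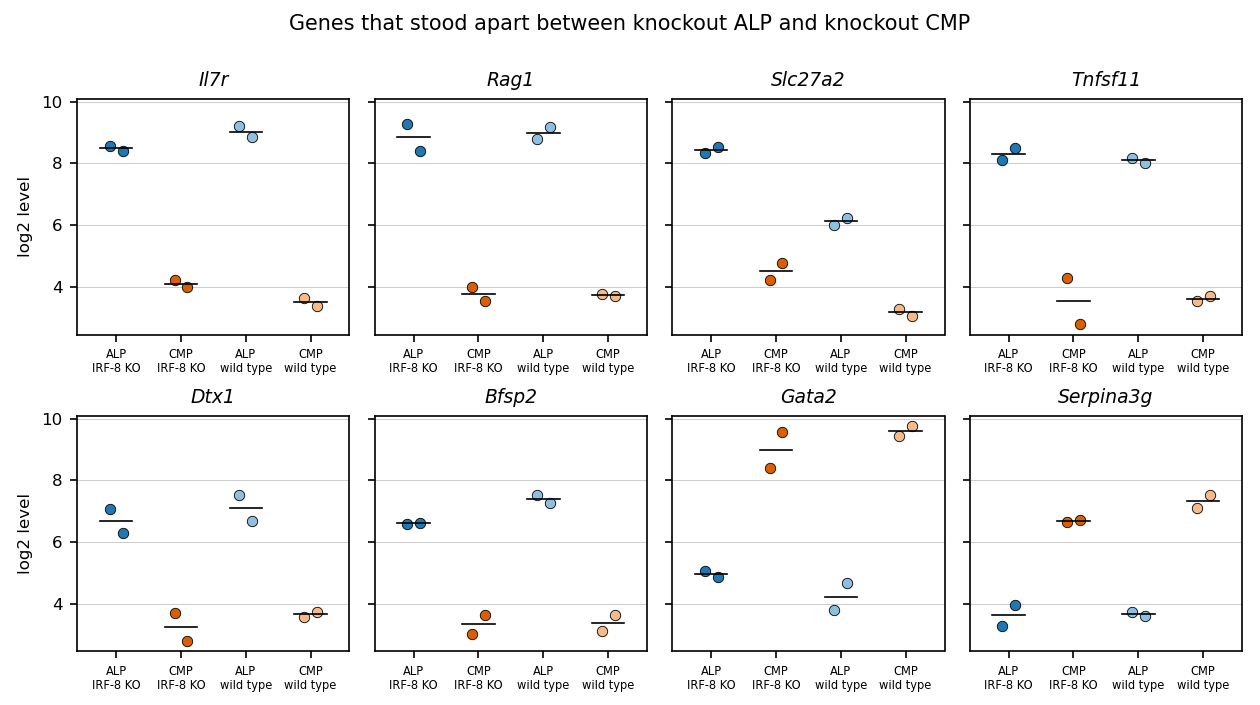
Log2 levels (vertical axis) of 8 genes on each array of the 4 groups (horizontal axis), with a bar at each group's mean; n = 2 arrays a group. Il7r, Rag1, Slc27a2, Tnfsf11, Dtx1 and Bfsp2 lie higher in ALP and Gata2 and Serpina3g lower, in both genotypes; only Il7r, Rag1 and Slc27a2 passed the threshold in the knockout.

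Genes of early B cells had the highest knockout median among the cell type and pathway lists. Of 27 genes on the table, 15 had both ALP arrays above both CMP arrays and 1 below (17.9% and 20.8% of all genes). In limma, 11 had an unadjusted p under 0.05 on the ALP side and none on the CMP side (3.13% and 2.71% of all genes). Rag1 alone passed the adjusted threshold. The median difference was 1.00 in the knockout and 0.30 in wild type, against -0.03 and 0.02 over all genes. Leaving out 1 knockout array at a time gave knockout medians of 0.719 to 1.147. Vpreb1, which encodes part of the surrogate light chain of pre-B cells, had 8.14 and 8.29 in knockout ALP, 5.71 and 4.32 in knockout CMP, 4.19 and 4.23 in wild-type ALP, and 4.20 and 5.65 in wild-type CMP. Knockout ALP alone were high, and the knockout difference was 3.20 (adjusted p = 0.255 in limma), against -0.72 in wild type. Bach2, a transcriptional repressor present in B and T cells, had 8.65 and 7.65 in knockout ALP and 5.49 and 4.46 in knockout CMP. In wild type it had 8.72 and 7.83 in ALP and 8.02 and 8.65 in CMP. Here knockout CMP stood apart as the low group, with a difference of 3.18 (adjusted p = 0.21), against -0.06 in wild type. Foxo1, a factor needed for early B cells, differed by 2.00, and Ets1, a lymphoid factor, by 1.94 (adjusted p = 0.527 and 0.357); wild type had 0.22 and 2.90. Of the list's 26 genes with a linked probe, 9 were detected on no knockout array, Pax5, a factor of committed B cells, among them. Over all 17469 genes with a linked probe, 10043 were detected on at least 1 knockout array. The difference between genotypes had an unadjusted p under 0.05 for 5 of the 27, 4 positive and 1 negative (3.44% and 3.14% of all genes).

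T and natural killer cell genes gave a mixed picture. Of 23 T lymphoid genes, 10 lay above and 2 below in knockout ALP (17.9% and 20.8% of all genes), and none passed. The median difference was 0.10 in the knockout (wild type 0.53). That median was 0.04 without knockout CMP array 1, 0.155 without ALP array 1, 0.359 without CMP array 2 and 0.361 without ALP array 2. Dtx1, a regulator and target of Notch signalling, had 7.07 and 6.30 in knockout ALP, against 3.69 and 2.80 in knockout CMP, where it was not detected. It was at least 4.86-fold higher in ALP (difference 3.44, adjusted p = 0.126 in limma), beside a wild-type difference of 3.45. Lck, the kinase next to the T cell receptor, differed by 2.40 in the knockout and 3.27 in wild type, and Lat, an adaptor of that receptor, by 1.90 and 2.06. Hes1, a Notch target, differed by 1.15 and Ptcra, the pre-T cell receptor chain, by 1.01. Of the 8 arrays, 2 detected Hes1 and 1 detected Ptcra. The CD3 genes Cd3d and Cd3g were detected on no knockout array. Of the 23 genes, 17 had a positive difference and 6 a negative one. Among the negative ones were the CD3 gene Cd3e (-0.92, detected on 1 array) and Thy1 (-0.82). Of 17 natural killer and innate lymphoid genes, 8 lay above and 2 below (17.9% and 20.8% of all genes). Il18r1, a receptor for interleukin-18, differed by 3.33 and Klrd1, the natural killer receptor chain CD94, by 1.92. Il2rb, a receptor chain for interleukins 2 and 15, differed by 1.87 and Cxcr6, a chemokine receptor, by 0.96.

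Among 19 genes of plasmacytoid dendritic cells, 11 lay above in knockout ALP and 1 below (17.9% and 20.8% of all genes). The median was 0.33, against 0.90 in wild type. Atp1b1, a subunit of the sodium pump, had 9.88 and 9.66 in knockout ALP, against 7.99 and 7.41 in knockout CMP (difference 2.07, adjusted p = 0.118 in limma). Dntt, the template-free DNA polymerase of lymphocytes, had 11.14 and 11.09 in knockout ALP, against 9.70 and 9.40 in knockout CMP. Its difference was 1.57, against 2.47 in wild type. Cox6a2, a respiratory chain subunit, differed by 1.66 and Rnase6, a ribonuclease, by 1.38. Siglech, a defining surface marker of these cells, was detected on no knockout array by its 1 linked probe. Its levels were 4.305 and 4.545 in knockout ALP, against 3.676 and 3.296 in knockout CMP (difference 0.94, adjusted p = 0.527 in limma). In wild type its difference was 2.32 (adjusted p = 0.0163 in limma).

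MHC class II genes, which encode the machinery that shows peptides to T cells, mostly had small fitted differences between the knockout progenitors. Of 13 genes, 5 lay above in knockout ALP and 1 below (17.9% and 20.8% of all genes). The median was 0.19, against -1.39 in wild type, where 1 lay above and 9 below (20.3% and 19.3% of all genes). Without 1 knockout array at a time the knockout median was 0.068 (without CMP array 2) to 0.467 (without ALP array 1). In wild type it was -1.98 when ALP array 2 was left out. H2-Aa, the class II alpha chain, was detected on no knockout array and had levels of 6.02 and 7.44 in wild-type ALP, against 10.87 and 10.83 in wild-type CMP. H2-Aa therefore has no measured difference in the knockout. In all, 3 of the 13 genes were detected on no knockout array, Marchf1 among them, and all 3 are part of the knockout median. H2-DMb2, a chain of the peptide loading factor H2-DM, had 6.93 and 7.43 in knockout ALP, against 4.26 and 3.94 in knockout CMP, where it was not detected, at least 6.85-fold higher in ALP (adjusted p = 0.417 in limma). H2-Ob, a chain of the H2-DM inhibitor H2-O, had 10.31 and 9.88 in knockout ALP, against 8.02 and 7.70 in knockout CMP. Its difference was 2.23 (adjusted p = 0.1), against 2.53 in wild type, and its partner H2-Oa differed by 0.82 in the knockout. Ctss, the protease that trims the invariant chain, differed by 0.68. Cd74, the invariant chain, had 5.67 and 6.11 in knockout ALP, against 6.00 and 3.63 in knockout CMP, so its groups overlapped; the difference of 1.08 became -0.11 without knockout CMP array 2. For 8 of the 13 genes the difference between genotypes was positive with an unadjusted p under 0.05 in limma, and for none negative (3.44% and 3.14% of all genes). None passed after adjustment, and H2-Aa and Marchf1, not detected in the knockout, were among the 8.

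Genes of a neutrophil primary granule list mostly lay lower in knockout ALP than in knockout CMP. The list also holds other myeloid genes, Hk3 and Ms4a3 among them. Several of its proteases had smaller fitted differences than in wild type. Of 16 genes, 10 had both ALP arrays below both CMP arrays and 1 above (20.8% and 17.9% of all genes), and 6 had an unadjusted p under 0.05, all on the CMP side (2.71% of all genes). None passed the adjusted threshold. The median was -0.58, against -1.07 in wild type. Prtn3, the granule protease proteinase 3, had 9.23 and 9.87 in knockout ALP, 11.36 and 11.40 in knockout CMP, 6.95 and 5.43 in wild-type ALP, and 11.04 and 10.94 in wild-type CMP. Both CMP groups were high, and knockout ALP lay between them and wild-type ALP; the knockout difference was -1.83 (adjusted p = 0.568 in limma) and the wild-type one -4.80 (adjusted p = 0.0163), with a difference between genotypes of 2.97 (adjusted p = 0.497).

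Hk3, a hexokinase of myeloid cells, had 9.74 and 9.80 in knockout ALP, 10.81 and 11.03 in knockout CMP, 4.48 and 3.07 in wild-type ALP, and 10.45 and 9.86 in wild-type CMP. The knockout groups did not overlap but stood 1.15 apart (difference -1.15), while the wild-type difference was -6.38. The difference between genotypes was 5.23 (SE 0.66, adjusted p = 0.194 in limma). Ms4a3, a marker of granulocyte and monocyte progenitors, differed by -2.32 in the knockout and -4.07 in wild type. ELA2, an older symbol that the table keeps and that neutrophil elastase has carried, differed by -2.04 and -4.42. Hp, haptoglobin, differed by -1.91 and -2.14. Ctsg, the protease cathepsin G, and Mpo, myeloperoxidase, were added after their values were seen. Ctsg had 10.56 and 10.69 in knockout ALP, against 11.06 and 11.14 in knockout CMP, a difference of -0.48 beside -3.25 in wild type (difference between genotypes 2.77, SE 0.34, adjusted p = 0.184). Mpo had 11.75 and 11.79 in knockout ALP, against 12.40 and 12.50 in knockout CMP, a difference of -0.68 beside -2.07.

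Of 19 late granule and receptor genes, 6 lay above in knockout ALP and 5 below (17.9% and 20.8% of all genes). The median of -0.13 changed sign to 0.084 without knockout CMP array 2 and was -0.248 without knockout CMP array 1. Pglyrp1, an antibacterial granule protein, had 4.60 and 3.34 in knockout ALP, against 6.71 and 7.15 in knockout CMP (difference -2.97, adjusted p = 0.147 in limma; wild type -3.21). Mmp8, the neutrophil collagenase, had 3.32 and 4.69 in knockout ALP, 6.43 and 5.74 in knockout CMP, 3.46 and 2.99 in wild-type ALP, and 3.25 and 3.13 in wild-type CMP. Knockout CMP alone were high, with a difference of -2.08 (adjusted p = 0.453) beside 0.04 in wild type. Csf3r, the receptor for granulocyte colony-stimulating factor, differed by -1.47, and Il1r2, a decoy receptor for interleukin-1, by 1.07. Cxcr2, a chemokine receptor of neutrophils, was not detected in knockout ALP and had 4.28 and 4.32 in knockout CMP. Of the 18 genes with a linked probe, 9 were detected on no knockout array, Ngp, a secondary granule protein, among them. Over all 17469 genes with a linked probe, 10043 were detected on at least 1 knockout array.

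Of 26 monocyte and macrophage genes, 9 lay below in knockout ALP and 4 above (20.8% and 17.9% of all genes). The median was -0.27, against -0.75 in wild type. The knockout median was -0.594 without CMP array 1, -0.474 without ALP array 2 and -0.178 without ALP array 1, and the wild-type one -0.626 without ALP array 2. None passed in the knockout, while 6 were lower in wild-type ALP past the threshold, where 0.403% of all genes were. Lyz2, lysozyme, had 5.72 and 6.33 in knockout ALP, against 7.24 and 8.03 in knockout CMP (difference -1.61). Ccr2, a chemokine receptor of monocytes, differed by -1.69. Adgre1, the F4/80 antigen, had 3.30 and 3.42 in knockout ALP, where it was not detected, against 4.50 and 5.07 in knockout CMP, at least 1.4-fold lower. Fcgr3, which encodes part of the CD16/32 antigen of the sort, had 4.78 and 4.30 in knockout ALP, against 6.72 and 6.79 in knockout CMP, although CMP were sorted without that antigen. Cx3cr1, the fractalkine receptor, went the other way, with 7.87 and 7.60 in knockout ALP and 5.96 and 6.08 in knockout CMP (difference 1.72, adjusted p = 0.711 in limma; wild type -0.68).

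Among 19 genes of conventional dendritic cells, 6 lay above and 3 below (17.9% and 20.8% of all genes). The median was 0.10 (0.152 without knockout ALP array 2). Irf4, the factor of the same family as IRF-8, had 4.86 and 4.37 in knockout ALP, against 3.24 and 3.15 in knockout CMP, where it was not detected. It was at least 1.15-fold higher in ALP (difference 1.41, adjusted p = 0.829). Kmo, an enzyme of tryptophan breakdown, differed by 1.28 and Itgax, which encodes the CD11c excluded from the CMP gate, by 1.12. Ccr7, a homing receptor, was detected on no knockout array.

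Genes of mast cells, basophils and red cell precursors held some of the large differences on the CMP side. Gata2, a transcription factor of stem cells, mast cells and basophils, had 5.06 and 4.85 in knockout ALP, against 8.40 and 9.59 in knockout CMP. The groups did not overlap, and the difference was -4.04 (SE 0.46, adjusted p = 0.104 in limma), beside -5.37 in wild type. Hdc, the enzyme that makes histamine, had 4.91 and 5.91 in knockout ALP, against 7.36 and 8.33 in knockout CMP (difference -2.44, adjusted p = 0.309). Mcpt8, a basophil protease, had 8.03 and 8.15 in knockout ALP, against 9.23 and 9.28 in knockout CMP, a difference of -1.16 beside -2.30 in wild type. Cpa3, a mast cell carboxypeptidase, differed by -2.71 and Mitf, a mast cell factor, by -1.03. These 5 are the furthest of 20 genes, of which 3 lay above and 5 below (17.9% and 20.8% of all genes). The median of the 20 was 0.09. It became 0.016 when knockout CMP array 1 was left out, 0.044 for knockout ALP array 1 and -0.006 for knockout CMP array 2. Fcer1a, a chain of the IgE receptor, was detected on no knockout array.

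Of 25 erythroid genes, 15 lay below in knockout ALP and 2 above (20.8% and 17.9% of all genes), with a median of -0.29. In wild type 7 lay below and 3 above (19.3% and 20.3% of all genes), with a median of -0.70. The knockout median was -0.442 without CMP array 1 and -0.199 without CMP array 2. Their summed linear level was 6006 and 6304 in knockout ALP, against 7510 and 8661 in knockout CMP. Icam4, a red cell adhesion molecule, had 3.87 and 3.79 in knockout ALP, where it was not detected, against 6.21 and 6.83 in knockout CMP, at least 4.68-fold lower (adjusted p = 0.21 in limma). Tal1, a factor of blood stem and red cells, differed by -2.11 and Nfe2, a factor of red cells and megakaryocytes, by -1.11. Car2, carbonic anhydrase 2, differed by -2.21 and Hbb-b1, a beta globin, by -1.12. Hba-a1, an alpha globin, and Klf1, a red cell factor, were detected on no knockout array. Of 22 megakaryocyte genes, 3 lay above and 6 below (17.9% and 20.8% of all genes). Cd9, a tetraspanin of platelets, was at least 1.82-fold lower in ALP. Itga2b, an integrin of platelets, had 3.72 and 6.92 in knockout CMP, so that 1 array carried its difference. Slc14a1, a urea transporter, went the other way, by 2.04. Gp1bb, a platelet receptor chain, had 7.76 and 4.79 in knockout CMP, and its difference of -1.12 became 0.37 without knockout CMP array 1.

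Cell cycle genes lay above in knockout ALP for 20 of 36 and below for 1 (17.9% and 20.8% of all genes), with a median of 0.35. In wild type 6 lay above and 12 below (20.3% and 19.3% of all genes), with a median of -0.25. Without 1 knockout array at a time the knockout median was 0.296 to 0.471. None passed after adjustment. In limma, 8 had an unadjusted p under 0.05 in the knockout on the ALP side and none on the CMP side (3.13% and 2.71% of all genes). Plk1, a kinase of mitosis, had 9.48 and 9.70 in knockout ALP, 8.14 and 7.86 in knockout CMP, 9.53 and 8.73 in wild-type ALP, and 9.65 and 10.34 in wild-type CMP. Knockout CMP were the low group, with a difference of 1.59 (adjusted p = 0.439 in limma) beside -0.87 in wild type. Ccnb1, cyclin B1, differed by 1.98, Ube2c, a ubiquitin-conjugating enzyme of mitosis, by 1.58, and Nusap1, a spindle protein, by 1.19. Cenpe, a kinetochore motor, went the other way, by -1.10, with overlapping groups. For 5 of the 36 the difference between genotypes had an unadjusted p under 0.05, all positive, beside 3.44% of all genes.

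**Figure D2:**
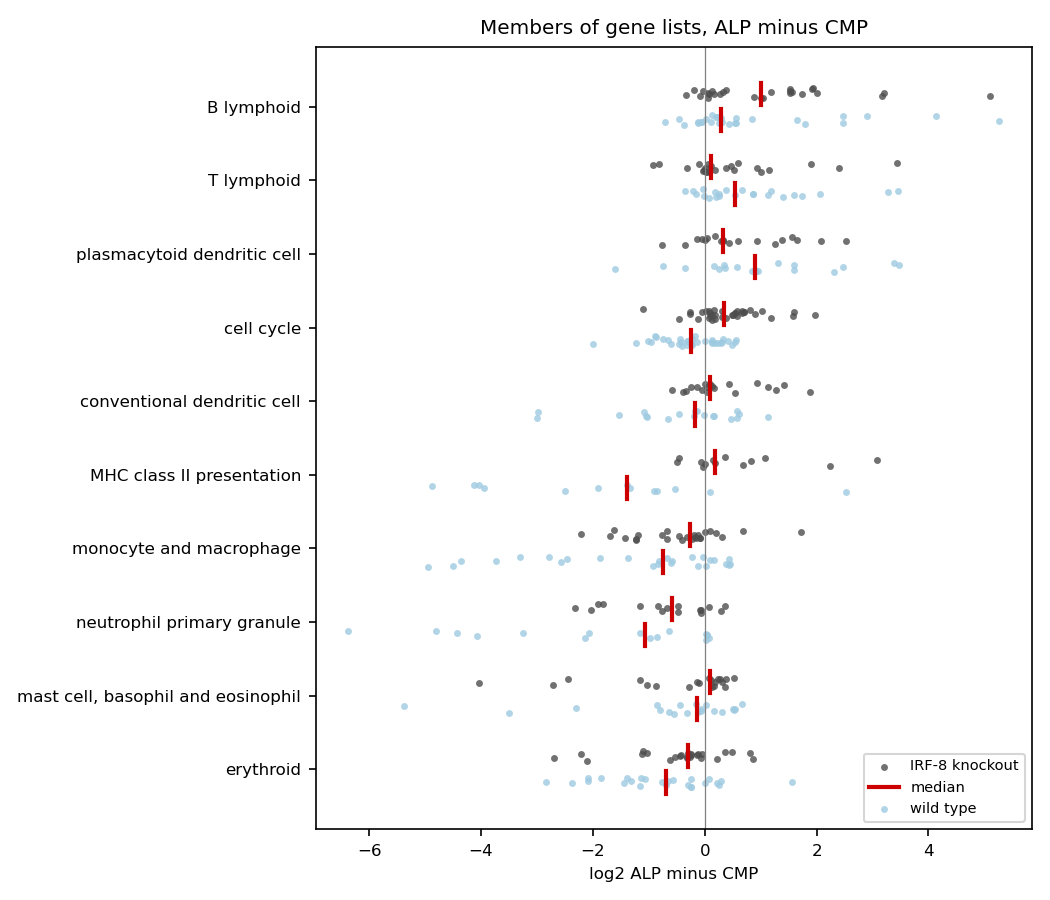
Differences in log2 level, ALP minus CMP (horizontal axis), of the members of 10 gene lists (vertical axis) in the knockout (dark points) and in wild type (light points), with a red bar at each median. B lymphoid genes have a knockout median of 1.00 and a wild-type median of 0.30, and MHC class II genes of 0.19 and -1.39; none of these medians was tested.

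Genes of 2 other cell groups that a sort could carry over were also counted. Over all 17469 genes with a linked probe, 10043 were detected on at least 1 knockout array. Of 15 stromal and endothelial genes, 2 lay above and 4 below in knockout ALP (17.9% and 20.8% of all genes). On no knockout array were 12 of 13 with a linked probe detected, and Col1a1 and Sparc, matrix proteins, were among these. Their summed linear level was 737 and 544 in knockout ALP, against 531 and 530 in knockout CMP, so both ALP sums lay above both CMP sums. The 1 linked gene detected on a knockout array was Pecam1, with a difference of 0.36. Of 11 plasma cell and mature B cell genes, 3 lay above and 4 below (17.9% and 20.8% of all genes), and 6 were detected on no knockout array. Their summed level was 610 and 563 in knockout ALP, against 809 and 720 in knockout CMP, so both ALP sums lay below, and Jchain, which links immunoglobulins, was among the genes not detected. The sums of both groups include the levels of genes not detected, and the part of such cells in the results was not tested. The medians of the remaining lists lay between -0.21 and 0.49. Genes above and below are given with each, beside 17.9% and 20.8% of all genes. Medians were 0.49 for 21 lymphoid regulators (12 above, 0 below) and -0.21 for 18 myeloid regulators (4 and 7). They were 0.06 for 15 MHC class I genes (2 and 2) and 0.15 for 34 interferon response genes (11 and 6). For 30 stem cell genes the median was -0.14 (6 and 10) and for 34 cytokine receptors 0.00 (8 and 10). It was 0.04 for 22 chemokine receptors and homing molecules (10 and 5) and 0.05 for 6 NADPH oxidase genes (2 and 0). For 23 immediate early and heat shock genes it was 0.07 (9 and 4).

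The lineage difference itself differed between genotypes for 3 genes (0.0165% of those tested; limma, adjusted p under 0.05), P2ry6, Id2 and Lgals3, with 1194 (6.59%) at an unadjusted p under 0.05. P2ry6, a receptor for extracellular UDP, had 5.43 and 5.65 in knockout ALP, 3.38 and 3.20 in knockout CMP, 3.25 and 3.79 in wild-type ALP, and 8.25 and 8.70 in wild-type CMP. ALP were the higher group in the knockout and CMP in wild type, and the lower group of each pair was not detected. The difference was at least 2.19-fold higher in ALP in the knockout and at least 14.5-fold lower in ALP in wild type. Fitted differences were 2.25 and -4.95, and their difference was 7.20 (SE 0.40, adjusted p = 0.0169 in limma), or at least 4.99 on the log2 scale when each undetected group is set to its bound. That bound holds on the scale of the authors' gene table only.

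Id2, which encodes an inhibitor of E proteins needed by innate lymphoid and some dendritic cells, had 5.95 and 5.92 in knockout ALP, 3.93 and 4.20 in knockout CMP, 5.57 and 6.03 in wild-type ALP, and 8.84 and 8.74 in wild-type CMP. Its levels in ALP overlapped between genotypes, while knockout CMP lay below wild-type CMP. The difference was 1.87 in the knockout (adjusted p = 0.126) and -2.99 in wild type (adjusted p = 0.0103), and these differed by 4.87 (SE 0.35, adjusted p = 0.0393). Lgals3, galectin-3, a sugar-binding protein of macrophages, had 3.05 and 2.85 in knockout ALP, 3.03 and 3.10 in knockout CMP, 2.75 and 3.02 in wild-type ALP, and 7.58 and 7.21 in wild-type CMP. It was detected in wild-type CMP alone, at least 6.89-fold lower in wild-type ALP, so the knockout holds no measured difference. The difference between genotypes was 4.39 (SE 0.34, adjusted p = 0.0408). All 3 calls were lost when any single knockout array or either wild-type CMP array was left out. They held without wild-type ALP array 1, while leaving out wild-type ALP array 2 kept P2ry6 and Id2 but not Lgals3.

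RefSeq windows of Id2 at chr12:25096093-25096342 (minus strand) and Lgals3 at chr14:47373610-47373859 (plus strand) are shown because these genes were called between genotypes; build, length, motifs and capitals are as above.
Id2: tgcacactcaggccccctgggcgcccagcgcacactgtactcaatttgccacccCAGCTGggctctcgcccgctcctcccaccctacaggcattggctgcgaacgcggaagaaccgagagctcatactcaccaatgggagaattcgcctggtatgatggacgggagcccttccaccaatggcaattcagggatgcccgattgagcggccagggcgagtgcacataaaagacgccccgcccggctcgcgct
Lgals3: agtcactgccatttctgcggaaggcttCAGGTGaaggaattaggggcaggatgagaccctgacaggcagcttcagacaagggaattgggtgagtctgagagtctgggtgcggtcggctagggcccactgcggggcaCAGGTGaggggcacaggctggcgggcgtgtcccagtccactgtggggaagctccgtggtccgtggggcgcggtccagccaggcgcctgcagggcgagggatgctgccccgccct
Id2 held 1 CAGCTG match and Lgals3 held 2 CAGGTG matches. Neither held the composite element.

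The 7 genes next in order of p did not pass. Batf3, a factor of dendritic cells, had 3.27 and 3.05 in knockout ALP, 3.07 and 3.17 in knockout CMP, 3.50 and 3.24 in wild-type ALP, and 6.41 and 6.29 in wild-type CMP, and was detected in wild-type CMP alone (adjusted p = 0.126 in limma). H2-Ab1, the class II beta chain, had 8.83 and 8.80 in knockout ALP, 8.75 and 8.50 in knockout CMP, 6.14 and 7.42 in wild-type ALP, and 11.69 and 11.63 in wild-type CMP. The knockout groups stood close together between the 2 wild-type groups, with differences of 0.19 in the knockout and -4.88 in wild type (adjusted p = 0.144 for their difference of 5.07). Dram1, a regulator of autophagy, had 8.20 and 9.42 in knockout ALP, 9.88 and 9.75 in knockout CMP, 3.36 and 2.98 in wild-type ALP, and 9.36 and 9.42 in wild-type CMP. Wild-type ALP were the low group, where it was not detected.

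Hpse, heparanase, differed by 0.55 in the knockout and -2.66 in wild type. Rap2a, a small GTPase, differed by 0.61 and -4.08, and Pcyox1l by 0.82 and -4.35. Enpp4, an ectoenzyme that splits nucleotides, was the exception in sign, at -1.97 in the knockout and 1.74 in wild type (difference between genotypes -3.71, adjusted p = 0.144). Its levels were 3.30 and 3.48 in knockout ALP, where it was not detected, and 5.52 and 5.19 in knockout CMP.

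**Figure D3:**
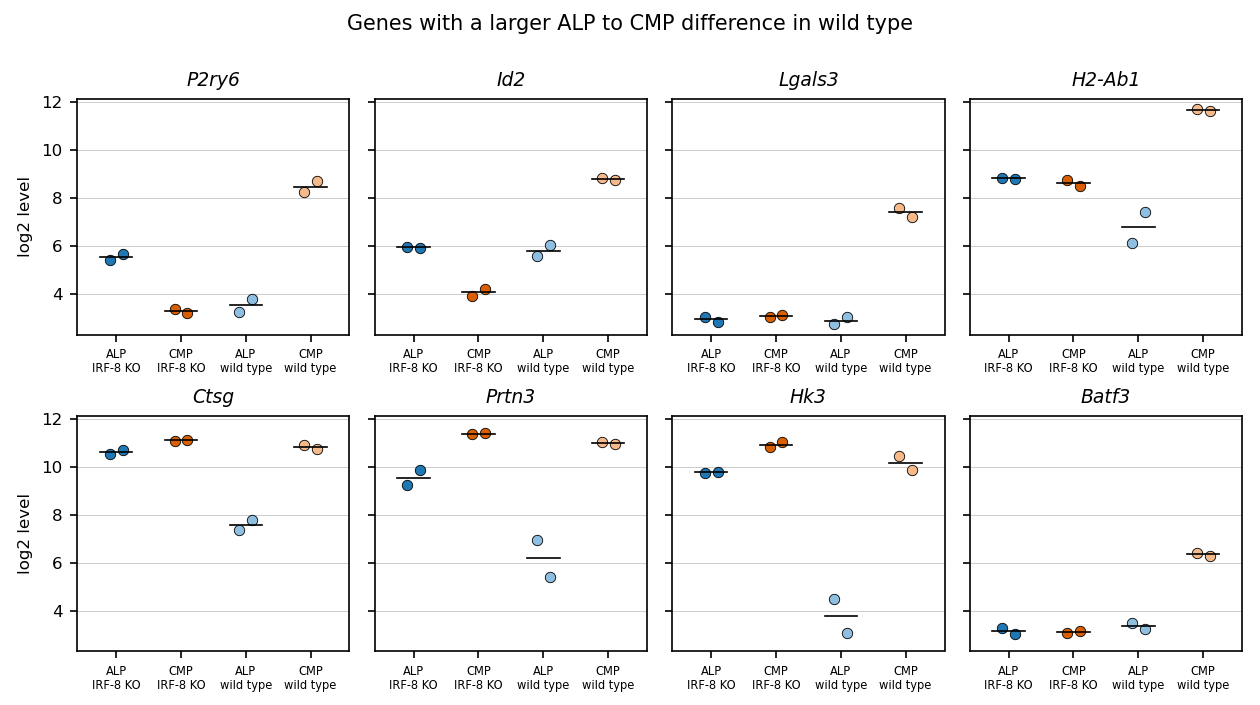
Log2 levels (vertical axis) of 8 genes on each array of the 4 groups (horizontal axis), with a bar at each group's mean; n = 2 arrays a group. P2ry6, Id2 and Lgals3, whose difference between genotypes passed the threshold, are high in wild-type CMP; Ctsg, Prtn3 and Hk3 are low in wild-type ALP and high in the other 3 groups, and did not pass.

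The lineage differences of wild-type cells were then followed into the knockout arrays. The wild-type difference uses no knockout level, but the spread behind its test is shared by all 8 arrays, so the choice of genes is not independent of the knockout arrays: 82 genes passed in wild type without either knockout ALP array, 60 without either knockout CMP array, and 0 with the 4 wild-type arrays alone (1570 at an unadjusted p under 0.05 in limma). In wild type 134 genes passed (0.739%), 61 higher and 73 lower in ALP (0.336% and 0.403%). The 61 genes higher in wild-type ALP had a median difference of 1.69 in the knockout and 3.06 in wild type. Both knockout ALP arrays lay above both knockout CMP arrays for 52 of these (85.2%, against 17.9% of all genes) and below for 2 (20.8% of all genes). In limma, 46 had an unadjusted p under 0.05 the same way (3.13% of all genes), and 3 passed. The 73 genes lower in wild-type ALP had a median of -0.67 in the knockout and -3.01 in wild type. Both knockout ALP arrays lay below both knockout CMP arrays for 44 of these (60.3%, against 20.8% of all genes) and above for 7 (17.9% of all genes). In limma, 32 had an unadjusted p under 0.05 the same way (2.71% of all genes), and none passed. Since wild-type values chose both sets, their wild-type sizes are a description and tend to be large. The gap between the sets was not tested.

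A knockout difference of at least 0.5 times the wild-type one was present in 36 of the 61 genes and in 19 of the 73. One under 0.25 times, or of opposite sign, was present in 13 of the 61 and in 40 of the 73. The median level of the 73 genes was 5.54 in knockout ALP and 6.77 in knockout CMP, against 4.06 in wild-type ALP and 7.59 in wild-type CMP. The median level of the 61 genes was 7.13 in knockout ALP and 4.49 in knockout CMP, against 7.41 in wild-type ALP and 3.81 in wild-type CMP. Without wild-type ALP array 2 the sets held 64 and 70 genes, with knockout medians of 1.16 and -0.59.

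Slc35d3, a nucleotide sugar transporter, is 1 gene whose high level in ALP was smaller in size in the knockout: it had 8.87 and 8.42 in knockout ALP, 6.60 and 6.53 in knockout CMP, 9.14 and 9.78 in wild-type ALP, and 3.79 and 2.98 in wild-type CMP. The ALP groups lay close together and knockout CMP lay above wild-type CMP. St6gal1, a sialyltransferase of B cells, had 10.55 and 10.71 in knockout ALP, 8.18 and 6.99 in knockout CMP, 10.04 and 10.24 in wild-type ALP, and 4.20 and 5.03 in wild-type CMP. Ckb, brain creatine kinase, had 7.52 and 6.05 in knockout ALP, 3.68 and 6.13 in knockout CMP, 3.44 and 3.32 in wild-type ALP, and 9.84 and 9.93 in wild-type CMP, so its knockout groups overlapped. These 3 genes were chosen after their values were seen, and their differences between genotypes did not pass (adjusted p = 0.21, 0.52 and 0.26 in limma).

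Across all 18132 genes the knockout and wild-type differences, which share no array, correlated at r = 0.257 (rho 0.129), and across the 9480 genes detected on at least 2 arrays at r = 0.311 (rho 0.227). These are across genes, which are not independent, and all arrays were normalized together. A difference beyond 2 on the log2 scale was present in 151 genes in the knockout, 80 higher and 71 lower, against 492 in wild type, 222 higher and 270 lower. Leaving out 1 knockout array gave 237 to 282 genes beyond 2 in the knockout, and leaving out wild-type ALP array 2 gave 584 in wild type.

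**Figure D4:**
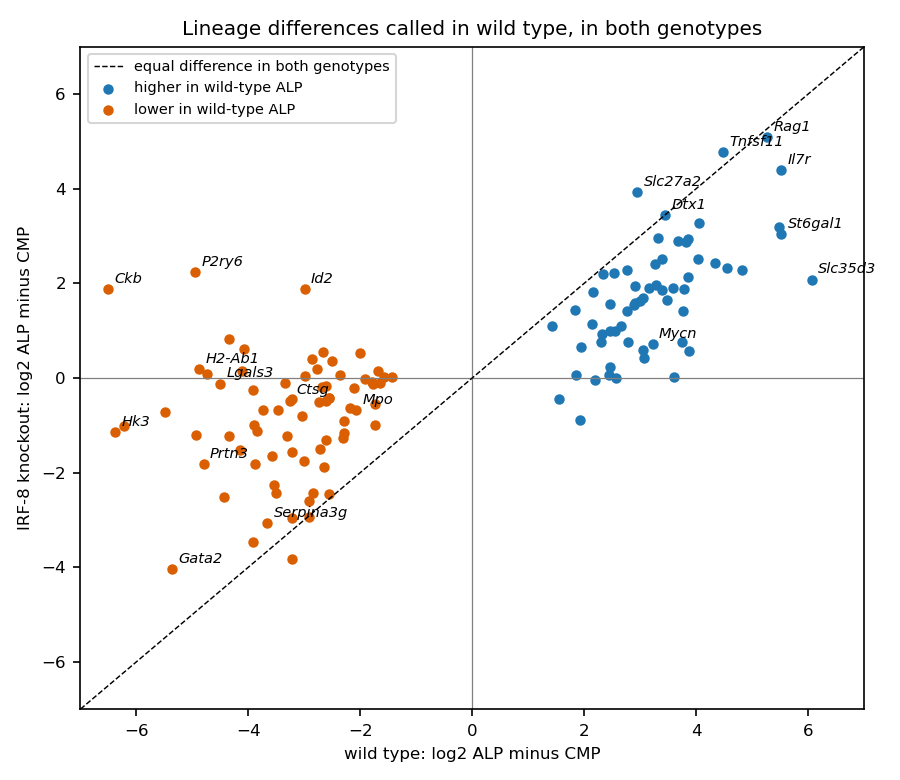
Log2 difference, ALP minus CMP, in the knockout (vertical axis) against wild type (horizontal axis) for the 134 genes that passed in wild type; blue points are higher and orange points lower in wild-type ALP, and the dashed line marks equal differences. The 61 blue points have a knockout median of 1.69 and the 73 orange points one of -0.67.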

How the data were processed

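RNA amplified from sorted progenitors was read on 8 bead arrays. Per the labels, a Nugen pico kit was used; scanner software and slide were not stated. In the deposited gene table the authors' values are log2, and the values themselves show quantile normalization, a lowered background and a median polish over the probes of a gene. Each probe also has a linear intensity and a detection p-value in the deposited scanner table. A single one of 8 detection columns has no number, and was taken for wild-type CMP array 1 since the other wild-type CMP column is numbered 2. Matching values within 0.002 on the log2 scale linked 17469 of 18132 genes (96.3%) to probes and gave the detection calls; 663 genes have none, and 0 of 500 genes with shuffled values were linked. Of genes with at least 3 probes, part of the probes was linked. RefSeq synonyms updated 2660 symbols, and 1167 without a unique match stayed as deposited.

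One model of the 4 group means was fitted to the gene table with limma 3.58.1 in R 4.3.3 (4 residual and 2.48 prior degrees of freedom), without a filter or a replicate block, and p-values were adjusted by Benjamini-Hochberg over all genes at 0.05. The method was tested on simulated data. Other steps ran in Python 3.11.15 (scipy 1.17.1, pandas 2.3.3, numpy 2.4.6, matplotlib 3.10.9). With 2 arrays a group, the number of arrays limits the precision. The gene lists, tests and genes were chosen with earlier results of these data known. By rule the text names Irf8, genes past the threshold, up to 5 members of a described list with the largest knockout difference, and the 10 genes with the smallest p between genotypes; other genes are markers of a cell type or sort, or were picked with their values in view. Alternatives were other background corrections and scalings, a detection filter, an intensity trend, array weights, other thresholds, a block, 4 arrays alone and leaving out each array. A few items are not reported here. Probes of Kit, Cd79a, Igll1 and other list genes with no entry under these names were not analysed here.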

Additional observations from a re-analysis of the deposited data

Results flagged for a closer look

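A set of 3 results was picked out because the difference between ALP and CMP differed between the genotypes by a test of that difference in limma, all of them higher in knockout ALP relative to CMP than in wild type. P2ry6 differed by 7.20 on the log2 scale (adjusted p = 0.0169), Id2 by 4.87 (adjusted p = 0.0393) and Lgals3 by 4.39 (adjusted p = 0.0408). For each, both knockout CMP arrays lay below both wild-type CMP arrays. For P2ry6 and Lgals3 the groups with low levels were not detected, so the fitted sizes are uncertain. Sizes also depended on the processing. Over the 18 alternatives they ran from 2.27 to 7.47 for P2ry6, 2.32 to 5.10 for Id2 and 1.19 to 4.57 for Lgals3. Over the 18 alternatives P2ry6 passed in 8 (adjusted p 0.0119 to 0.235), Id2 in 5 (0.0243 to 0.313) and Lgals3 in 5 (0.0272 to 0.313). No group has 4 arrays, so single arrays far from their group were not looked for.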

How the results depend on the processing

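The knockout comparison passed 3 genes. It passed 7 with an offset of 50 after background correction of the scanner signals, 0 at an adjusted p under 0.01, 9 under 0.10, 0 with the 4 knockout arrays alone (1357 at an unadjusted p under 0.05) and 0 with these arrays and the detected genes alone, chosen after seeing the data (860). Leaving out each array gave 0 to 3. Without either wild-type ALP array it was 3. The wild-type comparison passed 134 genes, 88 with array weights, 14 under 0.01, 297 under 0.10, 0 with its 4 arrays alone (1570 unadjusted) and 0 to 904 when each array was left out. The count was 0 when wild-type CMP array 2 was left out (1316 unadjusted), 25 for wild-type CMP array 1 and 904 for wild-type ALP array 1. The difference between genotypes passed 3 genes, 1 after background correction with offset 16, 0 with offset 50 (1123 unadjusted), 0 with median scaling (1407), 1 among detected genes, 7 with an intensity trend and robust fitting, 0 under 0.01 and 0 to 78 when each array was left out.

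Deviations of same-numbered arrays from their group means correlated between groups at -0.149 to 0.054, which gave no sign of pairing by number. Low correlations of this kind cannot exclude a shared origin, so whether the numbers pair the samples is not known. The replicate block gave 1 gene in the knockout, 104 in wild type and 0 between genotypes (1152 unadjusted). Cd74 in the knockout was -0.11 to 2.26 and Gp1bb -2.61 to 0.37 when each array was left out, against 1.08 and -1.12; a knockout CMP array set each sign. Counted over pairs of a single gene and an alternative, 69 lost a call and 12 gained one. A fit that leaves 1 array in a group assumes that it varies like the others. The causes of these changes were not tested beyond the arrays or genes each alternative removes. No slide is given, so none could be used as a block.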
